A study of Caenorhabditis elegans with 8 samples.

Results

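Wnt proteins are secreted, lipid-modified signals that bind Frizzled receptors on neighbouring cells. In *C. elegans* they set the polarity of dividing cells, guide migrating neuroblasts and growing axons, and in the early embryo separate gut from mesoderm fates. At the end of the pathway is POP-1, the worm's TCF/LEF transcription factor, which represses target genes until Wnt input lowers its nuclear level and provides it with a beta-catenin coactivator. The genes described here are the 5 Wnt ligands *egl-20*, *cwn-1*, *cwn-2*, *mom-2* and *lin-44*, the 4 Frizzled receptors *mig-1*, *lin-17*, *cfz-2* and *mom-5*, and *pop-1*, 10 genes chosen by name from 18077 protein-coding genes with a named transcript in the counts. Where a gene had several listed transcripts, that with the highest mean count was used.

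RNA-seq was done on whole embryos to compare *ztf-11* KD with control, *ztf-11* being the worm gene of the Myt1 family of zinc finger factors. There were 4 libraries from *ztf-11* RNAi and 4 from feeding with the empty vector L4440 (control), described in the labels as biological replicates. Both conditions used strain TV23837, which carries *ztf-11(wy1100)* [*ztf-11::gfp*], the RNAi-sensitising *eri-1(mg366)*, and the transgenes *oxIs322* and *ynIs49*, so the controls are not wild type. Worms fed on the RNAi bacteria from L1 for 64 h, and bleaching released the eggs, which developed for 3 h in M9 buffer. The embryos are described as being at gastrula stages. In such bulk samples fewer cells of a type and less RNA per cell cannot be told apart.

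Libraries held 39343105 to 45609675 counts. *ztf-11* itself was at 44.3 ± 16.6 CPM in control and 11.3 ± 2.39 CPM in *ztf-11* KD embryos (SD, n = 4 libraries each), with no overlap. It had the lowest p of all transcripts in edgeR (log2 fold change -1.97, SE 0.27, unadjusted p = 2.5e-05, adjusted p = 0.262) and was called by DESeq2 (adjusted p = 1.2e-07). edgeR called it without control replicate 2 (adjusted p = 0.051), without control replicate 3 (adjusted p = 0.086) and with no filter beyond 1 count (adjusted p = 0.003). CPM scale the counts of each library to the same total, after TMM normalization, and the threshold for a call was an adjusted p under 0.1 over all transcripts tested. Some libraries stood apart in markers of development and tissue. Control replicate 2 had the highest summed level of germline and maternal transcripts (563 CPM, against 234 to 292 CPM in the other controls) and the lowest of body-wall muscle transcripts (2497 CPM, against 3576 to 4276 CPM). Control replicate 3 had the highest sum of pharynx transcripts of the controls (783 CPM, against 200 to 384 CPM). *ztf-11* KD replicate 3 had the lowest muscle sum of its group (3851 CPM, against 5479 to 7479 CPM). Its neuron, intestine and pharynx sums were also the lowest of its group. Where leaving out 1 of these libraries moved the log2 fold change of a named Wnt pathway gene by over 1.5 times or turned its sign, the value without it is given.

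Of the 10 genes, 6 had enough counts to be tested: the ligands *egl-20*, *cwn-2*, *mom-2* and *lin-44*, the receptor *cfz-2*, and *pop-1*. None was called different between *ztf-11* KD and control embryos, either by edgeR, which called 0% of 14328 transcripts, or by DESeq2, which called 2.76% of 16066 with an adjusted p. At an unadjusted p under 0.05, 1 of the 6 was higher in *ztf-11* KD (*egl-20*), where 8.8% of all transcripts were higher, and 0 of the 6 were lower, where 3.99% were. For none of the 6 did the groups separate, while 3.61% of all transcripts were higher in every *ztf-11* KD library than in every control and 2.46% lower. The median log2 fold change of the 6 genes was 0.01, and that of all transcripts was -0.01.

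**Figure D1:**
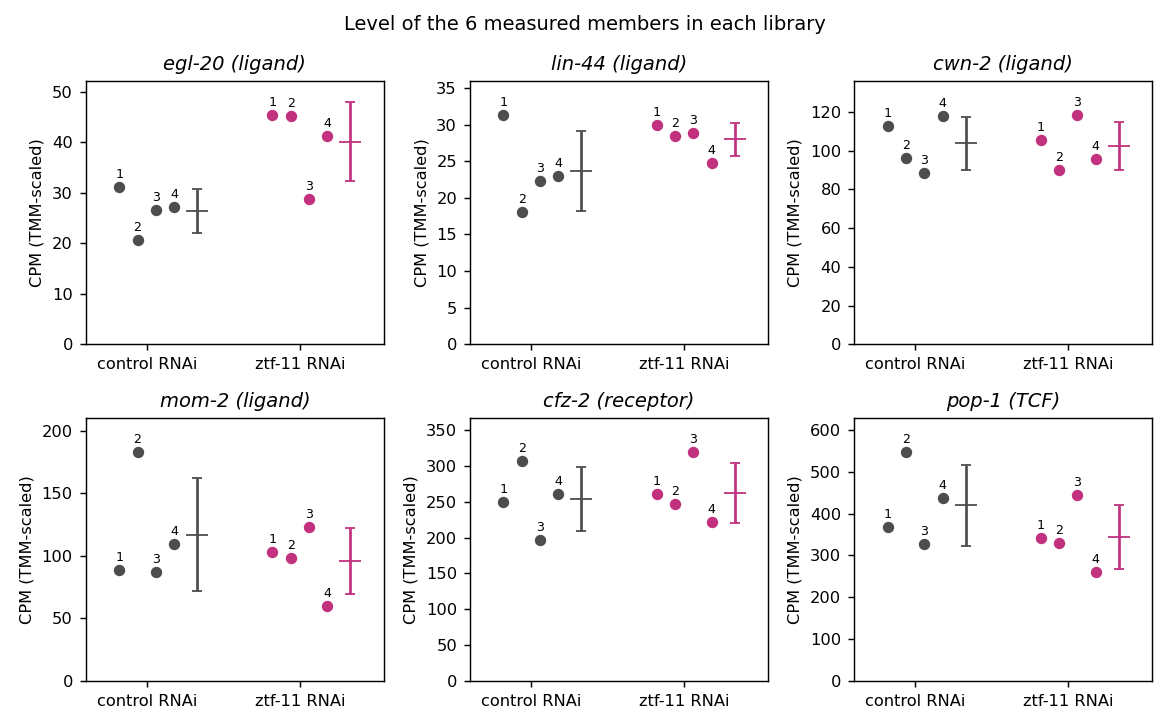
Level in CPM (TMM-scaled, linear axes from 0) of the 6 tested genes in the 4 control and 4 *ztf-11* RNAi libraries, with the replicate number at each point and the mean ± SD beside the points. The groups overlap for every gene, and for *egl-20* only *ztf-11* RNAi replicate 3 reaches into the control range.

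EGL-20 is a posterior Wnt, made in the embryo and larva by cells of the tail, and it directs the migration of the descendants of the left Q neuroblast by keeping the Hox gene *mab-5* on. Its transcript (NM_069353) was at 31.1, 20.5, 26.6 and 27.2 CPM in control replicates 1 to 4. In *ztf-11* KD replicates 1 to 4 it was at 45.3, 45.2, 28.7 and 41.2 CPM. Thus 3 of the 4 *ztf-11* KD libraries exceeded every control, and replicate 3 lay between the highest and the next highest control. The means were 26.4 ± 4.37 and 40.1 ± 7.82 CPM (SD, n = 4 each). This gave 0.61 as the log2 fold change, with SE 0.19 (edgeR, unadjusted p = 0.0106, adjusted p = 0.381). DESeq2 gave an adjusted p = 0.183, and an exact two-sided permutation test of the libraries gave p = 0.057, where 0.029 is the smallest p that 4 against 4 allows. The difference was therefore not called.

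Control replicate 2 and *ztf-11* KD replicate 3 bear on the size of the *egl-20* difference. Without control replicate 2, the lowest control, the log2 fold change was 0.49 (SE 0.18, adjusted p = 0.497 in edgeR). Without *ztf-11* KD replicate 3 it was 0.74 (SE 0.18, adjusted p = 0.160 in edgeR), and DESeq2 then called the gene (log2 fold change 0.71, adjusted p = 0.032). This was the only call of any of the 6 genes when a library was left out of either tool, and *egl-20* stayed higher in *ztf-11* KD under all 23 alternatives run.

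Summed levels of tissue markers were also compared, and only the sum of rectal and posterior genes did not overlap between the groups. The summed level of 7 rectal and posterior genes was 109 to 126 CPM in control and 128 to 163 CPM in *ztf-11* KD embryos. Within *ztf-11* KD this sum did not follow *egl-20*: replicate 3, the lowest for *egl-20*, was the second highest (148 CPM), and replicate 4 was the lowest (128 CPM). Of these genes *egl-38*, a PAX factor of the hindgut, was at 46.1 ± 7.42 and 62.4 ± 10.2 CPM (SD, n = 4 each), without overlap (log2 fold change 0.44, SE 0.17). Such a separation, with *ztf-11* KD higher, was found for 3.61% of all transcripts. All 4 tested genes of the list had a positive log2 fold change, 2 of them at an unadjusted p under 0.05, where 8.8% of all transcripts were higher and 3.99% lower, and none called by either tool, while *egl-26* and *egl-5* were listed at 0. The body-wall muscle sum was 2497 to 4276 CPM in control and 3851 to 7479 CPM in *ztf-11* KD embryos. It was carried by the contractile genes *unc-54*, *myo-3* and *pat-10* (log2 fold changes 1.02, 0.72 and 0.46), while the muscle factor *unc-120* was at -0.10. The intestine sum was 790 to 1873 and 1585 to 3312 CPM, carried by *act-5* (log2 fold change 1.12) and *vha-6* (0.96), while *elt-2*, *elt-7* and *ges-1* were at -0.004, -0.23 and -0.05. The pharynx sum was 200 to 783 and 485 to 1763 CPM, carried by *myo-2* and *myo-1* (1.58 and 1.61), with the pharyngeal factor *pha-4* at 0.08. The neuron sum was 115 to 268 and 173 to 354 CPM and the epidermis sum 574 to 893 and 544 to 913 CPM, with no gene of either list at an unadjusted p under 0.05. DESeq2 called 1 muscle, 2 intestine and 3 pharynx genes higher in *ztf-11* KD, where it called 2.76% of all transcripts. The germline and maternal sum was 234 to 563 CPM in control and 194 to 284 CPM in *ztf-11* KD embryos. Of its 5 tested genes, 4 had a negative log2 fold change (median -0.57), as did 7276 of all 14328 transcripts, and none was called by either tool. Control replicate 2 held the highest value of each of these 4 genes. Like *egl-20*, the muscle, intestine, pharynx and neuron sums were all lowest within *ztf-11* KD in replicate 3. The epidermis sum and the germline and maternal sum were highest there. The part of these tissues and of maternal RNA in the *egl-20* difference was not tested.

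LIN-44 is the Wnt of the tail tip epidermis and orients the asymmetric division of the T cell through LIN-17. Its transcript was at 31.3, 18.1, 22.3 and 23.0 CPM in control and at 29.9, 28.5, 28.8 and 24.8 CPM in replicates 1 to 4 of *ztf-11* KD. The highest value of all was a control, and every *ztf-11* KD library lay above the other 3 controls. The log2 fold change was 0.24 (SE 0.19, adjusted p = 0.533 in edgeR), from 23.7 ± 5.51 to 28.003 ± 2.24 CPM (SD, n = 4 each). It was 0.12 without control replicate 2 and 0.41 without control replicate 1 (adjusted p = 0.372 in edgeR).

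MOM-2 is the maternal Wnt by which the germline precursor P2 induces its neighbour EMS to produce endoderm. Its transcript was at 88.4, 183, 86.8 and 110 CPM in control and at 103, 98.1, 123 and 60.0 CPM in replicates 1 to 4 of *ztf-11* KD. Control replicate 2, the library with the most maternal RNA, held the highest value, and *ztf-11* KD replicate 4, with the lowest germline and maternal sum (194 CPM), held the lowest. The means were 117 ± 45.3 and 96.1 ± 26.4 CPM (SD, n = 4 each; log2 fold change -0.28, SE 0.28, adjusted p = 0.626 in edgeR). Without control replicate 2 the log2 fold change was 0.0002 (SE 0.22), so the sign of the estimate rested on that library. Without *ztf-11* KD replicate 3 it was -0.43 (SE 0.30).

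CWN-2 acts broadly in neuronal migration, axon guidance and the placement of the nerve ring. Its transcript was at 113, 96.2, 88.7 and 118 CPM in control and at 105, 90.0, 118 and 95.8 CPM in replicates 1 to 4 of *ztf-11* KD. The 2 groups covered nearly the same range, with means of 104 ± 13.8 and 102 ± 12.4 CPM (SD, n = 4 each; log2 fold change -0.02, SE 0.14, adjusted p = 0.949 in edgeR). The log2 fold change was -0.08 without control replicate 2, -0.11 without control replicate 3 and -0.10 without *ztf-11* KD replicate 3. *cwn-2* had the smallest SE of the 6 genes.

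CWN-1 is the remaining ligand, known from posterior body muscle and ventral cord cells, where it acts redundantly with other Wnts. Of its 2 listed transcripts, that with an NM identifier was listed at 0 in all libraries. The other, a noncoding RefSeq record (NR_132572), had 9, 13, 4 and 28 counts in control and 6, 12, 0 and 8 counts in *ztf-11* KD replicates 1 to 4. It was below the filter on low counts, so no comparison was made for *cwn-1*.

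Of the 4 Frizzled receptors only *cfz-2* had counts. CFZ-2 is known for roles in the migration of neurons such as ALM. Its transcript was at 250, 306, 197 and 261 CPM in control and at 261, 246, 319 and 222 CPM in replicates 1 to 4 of *ztf-11* KD. The lowest value was a control and the highest a *ztf-11* KD library. The means were 253 ± 44.8 and 262 ± 41.4 CPM (SD, n = 4 each; log2 fold change 0.05, SE 0.16, adjusted p = 0.898 in edgeR). The log2 fold change was 0.13 without control replicate 2, -0.07 without control replicate 3 and -0.06 without *ztf-11* KD replicate 3.

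*pop-1* had the highest counts of the 6 tested genes. It was at 369, 547, 327 and 437 CPM in control and at 341, 329, 444 and 261 CPM in replicates 1 to 4 of *ztf-11* KD. As for *mom-2*, control replicate 2 was the highest library and *ztf-11* KD replicate 4 the lowest. The means were 420 ± 96.2 and 344 ± 75.6 CPM (SD, n = 4 each; log2 fold change -0.29, SE 0.20, adjusted p = 0.494 in edgeR). The log2 fold change was -0.15 without control replicate 2 and -0.44 without *ztf-11* KD replicate 3, and neither was called (adjusted p = 0.836 and adjusted p = 0.283 in edgeR). POP-1 protein, whose nuclear level carries the Wnt response, was not measured here.

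**Figure D2:**
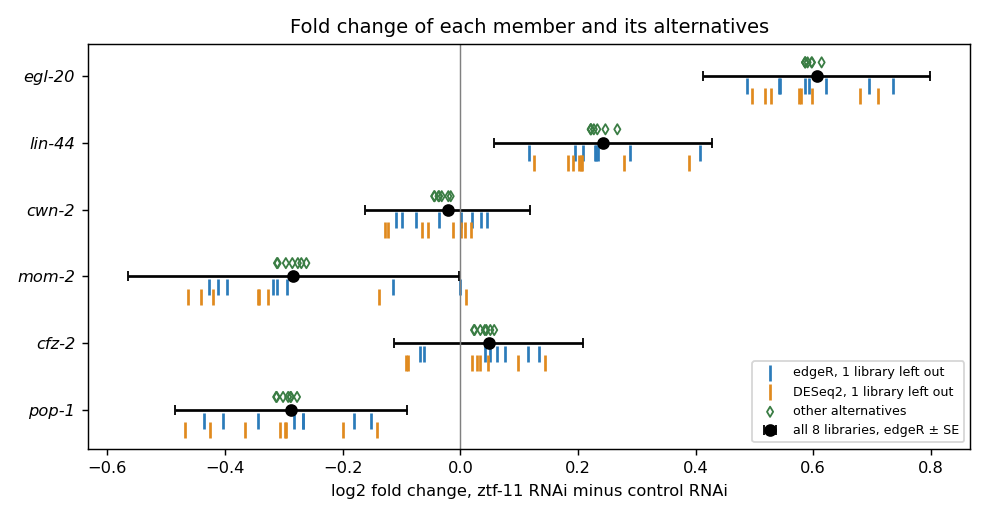
Log2 fold change (*ztf-11* RNAi minus control) of the 6 tested genes. Black points are the edgeR estimate ± SE from all 8 libraries, ticks the estimates with 1 library left out in edgeR (blue) and DESeq2 (orange), and open diamonds the other alternatives. *egl-20*, *lin-44* and *pop-1* stay on the same side of 0 throughout, whereas *cwn-2*, *mom-2* and *cfz-2* cross it when some libraries are left out.

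Levels were compared between genes per kilobase of transcript, with lengths from the Ensembl annotation of assembly WBcel235. Means in control and *ztf-11* KD embryos were 164 and 134 CPM per kb for *pop-1*, and 122 and 126 CPM per kb for *cfz-2*. *pop-1* was above *cfz-2* in 7 of the 8 libraries, and below it in *ztf-11* KD replicate 4. The next pair, *mom-2* (76.1 and 62.5 CPM per kb) and *cwn-2* (72.8 and 71.7 CPM per kb), overlapped and changed order between libraries. Lowest were *lin-44* (17.2 and 20.3 CPM per kb) and *egl-20* (13.5 and 20.6 CPM per kb), which also overlapped. The lowest library for the *mom-2* and *cwn-2* pair (39.05 CPM per kb) was above the highest for the *lin-44* and *egl-20* pair (23.2 CPM per kb), so the tail Wnts formed a separate low tier in both conditions. Per kilobase of coding length this gap remained (55.3 against 38.4 CPM per kb), and *pop-1* was above *cfz-2* in all 8 libraries.

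**Figure D3:**
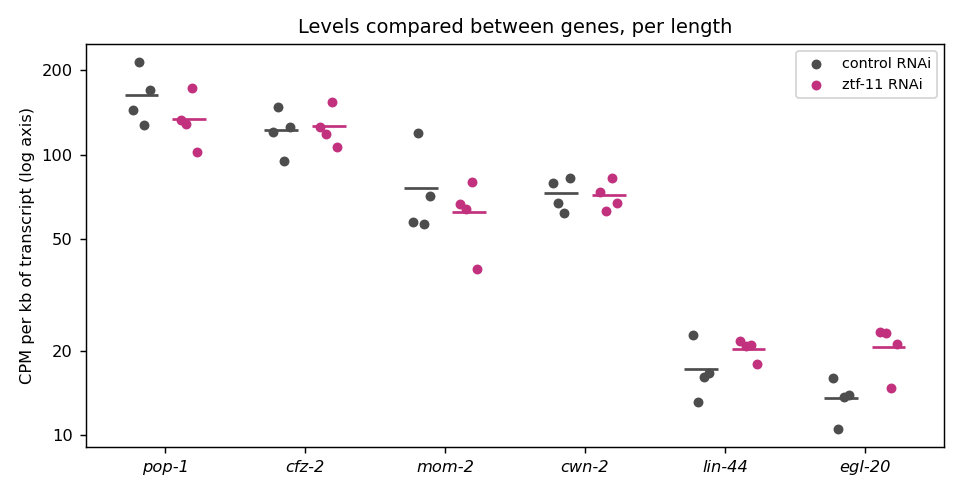
Level per kilobase of transcript (CPM per kb, log axis) of the 6 tested genes in each control (grey) and *ztf-11* RNAi (pink) library, with horizontal lines at the group means. *lin-44* and *egl-20* lie below the other 4 genes in every library.

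Among the 4 measured ligands, *mom-2* and *cwn-2* made up most of the ligand RNA in both groups. Per kilobase, *cwn-2* was 41.0% ± 6.09 of the ligand sum in control and 41.1% ± 3.90 in *ztf-11* KD embryos, and *mom-2* 41.5% ± 10.4 and 35.2% ± 5.82 (SD, n = 4 each). The *mom-2* share reached 56.7% in control replicate 2, and its control mean was 36.5% ± 3.21 (SD, n = 3) without that library. The share of *egl-20* was 9.11, 5.01, 9.20 and 7.54% in control and 12.5, 13.6, 7.42 and 14.6% in *ztf-11* KD replicates 1 to 4, so that replicate 3 again lay within the control range. The sum of the 4 ligands was 180 ± 25.5 and 175 ± 22.9 CPM per kb.

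The receptors *mig-1*, which acts in Q neuroblast and HSN migration, *lin-17*, the receptor for LIN-44 in the T cell, and *mom-5*, the receptor for MOM-2 in EMS, were listed at 0 in all 8 libraries. This held for each of the 2, 4 and 2 transcripts listed for them. A count of 0 allows up to 3 counts by counting error, or 0.066 to 0.076 CPM depending on the library. Genes with several listed transcripts were at 0 more often than others: 1080 of 3483 (31.01%) against 1228 of 14594 (8.41%) of genes with a single listed transcript, and 238 of 524 (45.4%) with 4 or more. In a short list of genes that every cell uses, *act-1*, an actin, was the only matched gene listed at 0. In families such as translation factors and nucleoporins, 7 of 155 genes with a single listed transcript and 3 of 27 with several were at 0. These Frizzled genes are therefore given only as listed at 0, with no statement on their expression.

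**Figure D4:**
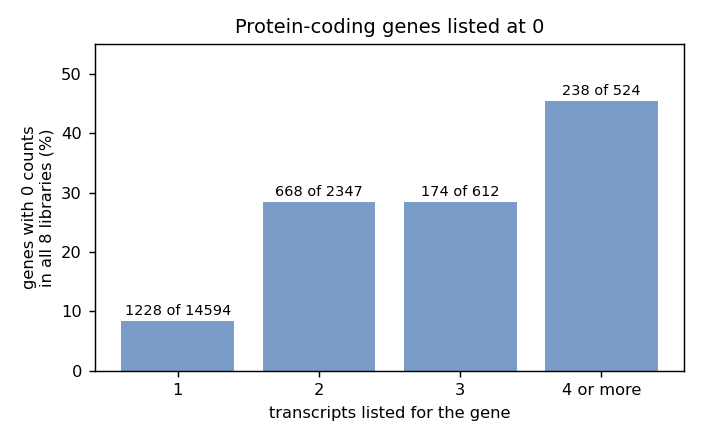
Share of protein-coding genes with 0 counts in all 8 libraries (%, bars from 0) by the number of transcripts listed for the gene, with the number of genes above each bar. The share is 8.41% for genes with 1 listed transcript and 45.4% for genes with 4 or more.

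The split also ran through the pathway as a whole. Taking the 10 genes with the other pathway genes matched to the counts, the 21 with a single listed transcript had none at 0 and 20 tested, with a median mean count of 2674. The 20 with 2 or more listed transcripts had 9 at 0, 2 below the filter and 9 tested, with a median mean count of 90.8. Each of the 6 tested genes of the ligands, receptors and *pop-1* had a single listed transcript, and each of the 4 others had several.

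Of 33 other pathway genes, 31 were matched by name, 6 of these were listed at 0 (*cam-1*, *vang-1*, *dsh-1*, *apr-1*, *sys-1* and *egl-18*), 2 were below the filter (*vps-35* and *ceh-22*) and 23 were tested. None of the 23 was called by edgeR or DESeq2, with 12 positive and 11 negative log2 fold changes and a median of 0.02. At an unadjusted p under 0.05, 2 of the 23 were higher in *ztf-11* KD, where 8.8% of all transcripts were, and none was lower, where 3.99% were.

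Of the 5 tested genes for Wnt secretion, *snx-3*, a sorting nexin that returns the Wnt carrier MIG-14 from endosomes, was at 51.0, 47.6, 53.7 and 48.5 CPM in control and at 65.8, 67.1, 56.0 and 75.8 CPM in replicates 1 to 4 of *ztf-11* KD. No control reached the level of any *ztf-11* KD library, of which replicate 3 was the closest (log2 fold change 0.40, SE 0.13, unadjusted p = 0.012 in edgeR over all genes, not called). Such a separation was found for 3.61% of all transcripts. Of the 3 tested beta-catenins, *bar-1*, the beta-catenin through which EGL-20 acts on *mab-5*, was at 35.9, 26.2, 43.7 and 37.2 CPM in control and at 48.1, 55.5, 42.6 and 54.5 CPM in replicates 1 to 4 of *ztf-11* KD. Here *ztf-11* KD replicate 3 lay below control replicate 3 and the groups overlapped (log2 fold change 0.49, SE 0.18, unadjusted p = 0.020 in edgeR over all genes, not called). *mab-5* itself was at 27.8 ± 3.55 and 30.2 ± 2.18 CPM (SD, n = 4 each; log2 fold change 0.12, SE 0.15). Its groups overlapped, and values with a library left out are not given for it. *egl-20*, *snx-3* and *bar-1* all had their lowest *ztf-11* KD value in replicate 3. That library had the lowest muscle, intestine, pharynx and neuron sums of its group, and the highest epidermis and maternal sums. By contrast, *cwn-2*, *mom-2*, *cfz-2* and *pop-1* had their highest *ztf-11* KD value in that library.

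The other lists had no gene at an unadjusted p under 0.05, and the most abundant tested gene of each is given. *lin-18*, a Ryk-type Wnt receptor, was at 30.4 ± 5.41 and 37.2 ± 0.61 CPM (log2 fold change 0.29, SE 0.15). *dsh-2*, a Dishevelled, was at 206 ± 98.7 and 144 ± 24.7 CPM (log2 fold change -0.51, SE 0.28), and 353 CPM of control replicate 2 was again its highest value, against 151 to 167 CPM in the other controls. Without that library the log2 fold change of *dsh-2* was -0.13 (SE 0.13). *mom-4*, the kinase that activates the Nemo-like kinase LIT-1, was at 121 ± 20.8 and 112 ± 20.5 CPM (log2 fold change -0.11, SE 0.17). Its log2 fold change was -0.01 without control replicate 2, and -0.19 without either of control replicate 3 and *ztf-11* KD replicate 3. *elt-6*, a GATA factor of the seam cells that is regulated by Wnt signals, was at 77.7 ± 7.72 and 80.6 ± 14.4 CPM (log2 fold change 0.05, SE 0.15; SD and n = 4 each throughout). Its log2 fold change was -0.01 without either of control replicate 2 and *ztf-11* KD replicate 3, and -0.001 without control replicate 3. The part of the developmental and tissue markers in these values was not tested.

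**Figure D5:**
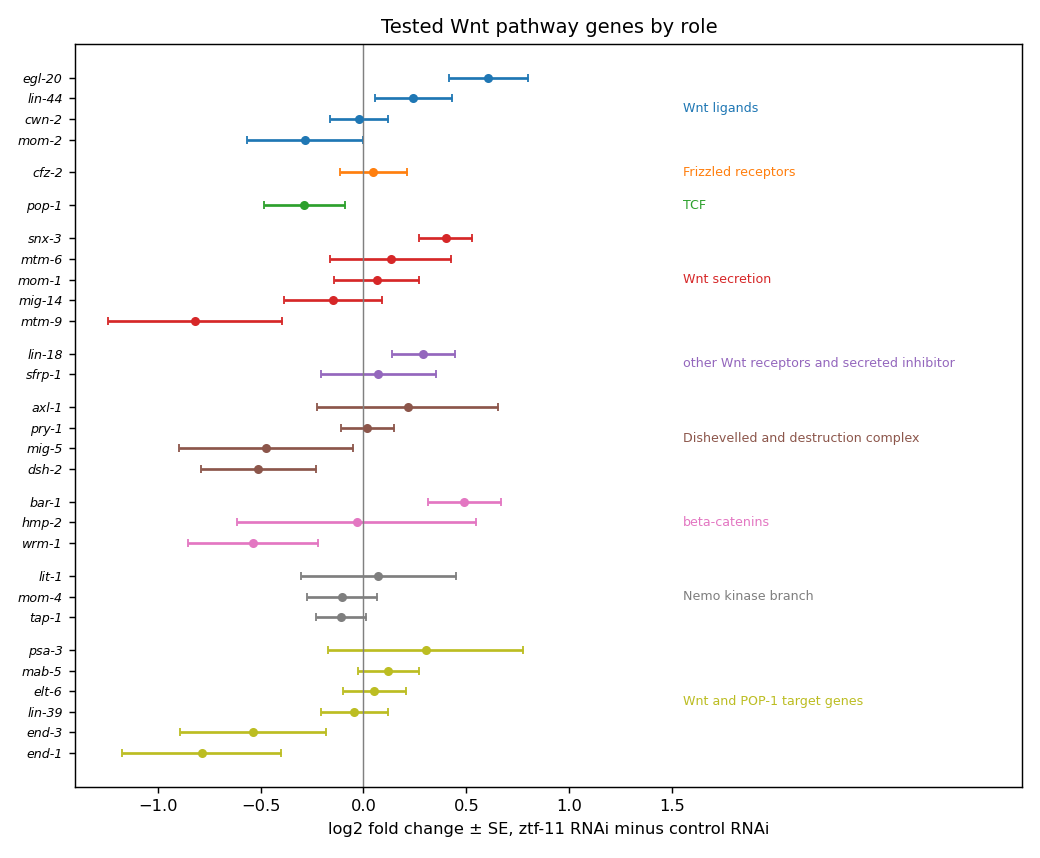
Log2 fold change ± SE (*ztf-11* RNAi minus control, edgeR, all 8 libraries) of the 29 tested Wnt pathway genes, coloured and grouped by role. No gene was called, and the estimates lie on both sides of 0.

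The transcripts whose levels ran closest to these genes over the 8 libraries were found by the root mean square difference of log2 CPM, each centred on its own mean. For *egl-20* they were *hrg-11.3* (0.077), *R04B3.3* (0.090) and *T24B8.4* (0.091). For *cfz-2* they were *ncx-3* (0.030), *R12C12.5* (0.041) and *F39H12.1* (0.048), and for *pop-1* they were *ztf-6* (0.044), *lbp-4* (0.048) and *nfya-1* (0.050). These profiles share their libraries, depth and scaling, and are given as a description.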

How the data were processed

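RNA-seq of 8 embryo samples was used, 4 *ztf-11* RNAi and 4 control, grouped by their titles. The authors trimmed the paired-end reads of stranded mRNA libraries, mapped them to *ce10* (TopHat2) and counted those that mapped uniquely (featureCounts). They deposited raw counts on 50606 RefSeq transcripts (28161 NM and 22445 NR identifiers), without normalization. Tool versions, the strand setting and the rule for reads over several transcripts are not given in the sources used here, so counts of genes with overlapping or several transcripts are uncertain. Within a condition, chi-square per degree of freedom between libraries was 33.7 or more, so none is a copy. P-values measure the spread between these libraries, and intervals for 0 counts cover counting error only.

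Names were taken from the RefSeq table of genes in assembly WBcel235 (45715 transcripts) and a supplementary table of the study (183 more, among them that of *egl-20*). WBcel235 is not the *ce10* build of the counts, so no coordinates are given. Sequences were not used here, and the planned comparison of protein and promoter sequences was not run.

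The fit used edgeR 4.0.16 (R 4.3.3): filterByExpr (minimum count 10), TMM, glmQLFit (robust) and glmQLFTest on the condition, with Benjamini-Hochberg adjustment over 14328 transcripts and a threshold of 0.1. SE were derived as the absolute log2 fold change over the square root of F, and log2 CPM used a prior count of 2. Single levels were compared by exact two-sided permutation over 70 assignments. The steps were tested on simulated data. Alternatives were DESeq2 1.42.0, other scalings and filters, counts summed per gene, a replicate block, a threshold of 0.05 and leaving out each library. DESeq2 without each library, and the genes that every cell uses, were chosen after the data were seen. The genes and lists were chosen with earlier results of these data known. Named genes are the 10 genes, *ztf-11*, and of each pathway list those with an unadjusted p under 0.05 or else the most abundant tested, with the 3 closest profiles of the ligand and receptor with the largest change and of *pop-1*. *end-1*, *end-3*, *mab-5* and the named rectal and posterior, muscle, intestine and pharynx markers were added after their values were seen, as were the alternatives for named genes other than the 10.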

Additional observations from a re-analysis of the deposited data

Results flagged for a closer look

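In 2 of 34 groups of 4 libraries looked at, 1 library lay far from the others, and chance flags about 5% of groups. Both were control replicate 2, the library with the highest germline and maternal sum. *dsh-2* was at 353 CPM there, against 151 to 167 CPM in the other controls. *end-1*, a GATA factor that specifies the gut early in development, was at 26.3 CPM there, against 7.99 to 8.72 CPM in the other controls and 6.75 to 8.22 CPM in *ztf-11* KD embryos. Its log2 fold change was -0.79 (SE 0.39) with all libraries and -0.19 (SE 0.18) without control replicate 2. *end-3*, the other endoderm GATA gene of the list, did not show this: it was at 2.01, 4.15, 3.94 and 2.45 CPM in control replicates 1 to 4, and at 1.48 to 3.01 CPM in *ztf-11* KD embryos (log2 fold change -0.54, SE 0.36, and -0.38 without control replicate 2). *end-1* and *end-3* were named after their values were seen. The part of developmental stage in these values was not tested.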

How the results depend on the processing

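None of the 6 tested genes was called under DESeq2, DESeq2 size factors, unscaled library totals, a minimum of 1 count in place of the filter, a minimum of 10 counts per library, transcripts summed by gene, the replicate block or a threshold of 0.05. With each library left out in edgeR or DESeq2, the number called ranged from 0 to 1, the 1 being *egl-20* in DESeq2 without *ztf-11* RNAi replicate 3. The number with an unadjusted p under 0.05 ranged from 0 (DESeq2 without *ztf-11* RNAi replicate 2) to 2 (edgeR without control RNAi replicate 1, with *lin-44*, or without *ztf-11* RNAi replicate 3, with *pop-1*). The sign of 3 log2 fold changes turned when libraries were left out, over ranges of -0.127 to 0.0458 for *cwn-2*, -0.463 to 0.00959 for *mom-2* and -0.0923 to 0.144 for *cfz-2*. Of the other named genes, *elt-6* turned sign (-0.0528 to 0.14) and so did *mom-4* (-0.219 to 0.00396), and neither was called. *egl-20*, *lin-44* and *pop-1* kept theirs under all 23 alternatives, *egl-20* between 0.49 and 0.74. Over all transcripts, calls were 0 in edgeR, 444 in DESeq2 and 6 with no filter beyond 1 count, 0 to 3 in edgeR and 68 to 1685 in DESeq2 with a library left out. The cause was not tested.

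Same-numbered libraries did not deviate together (correlations 0.01, -0.30, -0.64 and -0.21). Control replicate 3 and *ztf-11* KD replicate 4 did (0.58), as did control replicate 2 and *ztf-11* KD replicate 3 (0.52). Deviations centred within groups of 4 cannot exclude that same-numbered samples were prepared together. With the replicate block the log2 fold change of *egl-20* was 0.60 (adjusted p = 0.706 in edgeR), 0 of the 6 genes were called, 708 transcripts had an unadjusted p under 0.05 in place of 1832, and no call changed.

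At 4 libraries a condition, the SE of 0.14 to 0.28 on the log2 scale limits what could be seen for the 6 genes, and depth does not limit them. For *cwn-1*, *mig-1*, *lin-17* and *mom-5* the counts allow no comparison.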

Other observations

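The ratios of the 6 tested genes to each other within a library do not depend on the scaling between libraries. Of the 15 ratios of CPM per kb of transcript, chosen after the counts had been seen, 1 did not overlap between the groups. Of single transcripts, 3.61% were higher in every *ztf-11* KD library than in every control and 2.46% lower. The share over ratios of all transcripts was not computed. The ratio of *cfz-2* to *pop-1* was 0.836, 0.690, 0.744 and 0.736 in control and 0.944, 0.922, 0.886 and 1.05 in *ztf-11* KD replicates 1 to 4. This ratio was named because its groups did not overlap, which fixes the exact p at its smallest value. The part of the tissue and maternal markers in it was not tested. An exact two-sided permutation test gave p = 0.029, the smallest that 4 against 4 allows, and 0.367 after Benjamini-Hochberg adjustment over the 15 ratios, so the difference did not pass. Neither *cfz-2* nor *pop-1* separated the groups by its own level.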
